A study of Arabidopsis thaliana with 9 samples.

Results

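The 6 genes ATHB2 (AT4G16780), HAT1 (AT4G17460), HAT2 (AT5G47370), HAT3 (AT3G60390), ATHB4 (AT2G44910) and HAT22 (AT4G37790) encode homeodomain-leucine zipper (HD-Zip) proteins of class II. They were chosen by gene identifier, as the class II genes linked to shade responses or close to those, and are 6 of 32678 genes in the deposited data. All 6 were found in all 9 libraries and passed the filter on low values, with at least 1 FPKM (reads counted on a gene, per 1000 bases of its exons and per M reads) in each library. Their levels are compared between wild-type Col and the mutants csu5-1 and csu5-3, with 3 libraries a genotype. All groups were whole Arabidopsis thaliana seedlings of ecotype Col-0, aged 5 days and grown under constant white light of 14.59 μmol per square metre and second. Both mutants are named for COP1 SUPPRESSOR 5, a gene that the series title ties to a missense change which reverses its action in light-driven development. The labels name no other allele and no treatment in any group, and do not say which allele carries the missense change. They also do not say whether replicates came from separate cultures, so p-values measure only the spread between these libraries.

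HD-Zip proteins join a DNA-binding homeodomain to a leucine zipper through which they pair, and class II members act mostly as repressors of transcription. ATHB2 is a classic gene of shade avoidance: light filtered through leaves inactivates phytochrome, PIF transcription factors accumulate, and ATHB2 RNA rises within minutes. HAT1, HAT2, HAT3 and ATHB4 are also induced by such light, and HAT3, ATHB4 and ATHB2 help to set the upper side of the leaf together with class III HD-Zip proteins. HAT2 is in addition induced by auxin, HAT1 works with the brassinosteroid-regulated factor BES1, and HAT22 takes part in growth inhibition by abscisic acid.

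The RefSeq annotation of TAIR10.1 places the genes on 4 of the chromosomes. ATHB2 lies at chr4:9449114-9450905 on the plus strand, HAT1 at chr4:9739518-9741234 on the plus strand and HAT22 at chr4:17768042-17769676 on the plus strand. HAT2 lies at chr5:19216271-19218007, HAT3 at chr3:22320580-22322661 and ATHB4 at chr2:18517656-18519731, all 3 on the minus strand. The deposited values carry no coordinates, and the authors aligned to TAIR10. No member overlaps another annotated gene, and no pair of members shares a 100-base stretch of transcript. Translated RefSeq coding sequences gave proteins of 278 to 318 residues, with a C-P-S-C-E motif and an L-x-L-x-L motif near the start, a repression motif, in 6 of 6. By global alignment HAT1 and HAT2 were the closest pair of members, with 76.4% of aligned positions identical. HAT3 and ATHB4 followed with 65.8%, and the other pairs of members shared 40.5% to 57.7%. HAT22 was closer to HAT9, which is no member, with 71.6%.

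Upstream sequence is shown for the members that rose in csu5-1, ATHB4 and HAT2, since PIF proteins are known to bind the G-box CACGTG and the PBE-box CACATG. Each run holds the 300 bases before the RefSeq start of the gene in TAIR10.1, read 5′ to 3′ along the gene's minus strand, at chr2:18519732-18520031 for ATHB4 and chr5:19218008-19218307 for HAT2. Capitals mark a PBE-box on either strand.
ATHB4: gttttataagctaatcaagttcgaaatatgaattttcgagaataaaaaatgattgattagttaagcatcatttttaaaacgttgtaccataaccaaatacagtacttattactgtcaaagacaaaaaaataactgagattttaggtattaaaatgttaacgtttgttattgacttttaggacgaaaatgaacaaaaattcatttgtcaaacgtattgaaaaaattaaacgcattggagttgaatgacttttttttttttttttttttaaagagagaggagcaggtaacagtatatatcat
HAT2: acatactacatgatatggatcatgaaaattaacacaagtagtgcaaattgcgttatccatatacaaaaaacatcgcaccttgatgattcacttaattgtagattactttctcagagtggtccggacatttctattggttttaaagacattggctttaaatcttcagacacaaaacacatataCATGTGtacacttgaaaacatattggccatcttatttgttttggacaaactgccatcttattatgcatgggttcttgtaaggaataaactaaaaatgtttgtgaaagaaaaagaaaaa
The match in HAT2 begins at position −118 from the start and reads as the reverse complement of the PBE-box. Of the 6 members, HAT2 and HAT3 held a PBE-box in 300 bases, compared with 13.0% of the promoters of 19203 tested genes. In 1000 bases 4 of 6 held it, all but ATHB2 and ATHB4, against 38.2% of tested genes. No member held a G-box in either window, where 8.06% and 16.0% of tested genes did. A match is a description of these letters only, and both strands were searched for each motif. The G-box and the PBE-box differ in a base and do not overlap as exact matches.

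HD-Zip proteins of classes I and II bind palindromes of the form CAATNATTG, and ATHB2 is known to repress its own gene. Windows of 61 bases are shown around the matches in the members, at chr4:9448611-9448671 for ATHB2 and chr4:9738754-9738814 for HAT1, both on the plus strand of TAIR10.1, with the palindrome in capitals.
ATHB2: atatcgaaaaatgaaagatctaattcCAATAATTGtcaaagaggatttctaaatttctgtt
HAT1: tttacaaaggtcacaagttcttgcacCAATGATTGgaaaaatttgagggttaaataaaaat
The palindrome begins at position −477 from the start of ATHB2 and −738 from that of HAT1. The search allowed any central base, which is A in the ATHB2 match and G in the HAT1 match. Which HD-Zip protein, if any, binds either site was not tested. It was found in the 1000 bases of 2 of 6 members against 3.66% of tested genes, and in the 300 bases of 0 of 6 against 1.28%.

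Sequencing depth, estimated from the steps between low values, was 37.3 to 43.1 M counted reads a library. The members' values thus rest on about 121 to 2575 reads, the fewest for ATHB4 and the most for HAT22, with a counting error of 1.97% to 9.1%. On the first principal component over all tested genes (66.9% of the variance) the csu5-1 libraries lay at 45.7 to 49.1 and the other 6 at −26.1 to −22. From background knowledge, COP1 SUPPRESSOR 5 is WRKY32 (AT4G30935), an identity that the labels do not give. WRKY32 was at 8.48, 10.06 and 11.08 FPKM in Col, at 8.17, 8.22 and 7.96 in csu5-1 and was lowest in csu5-3, at 4.58, 3.65 and 3.78. Its level fell in csu5-3 by 1.20 ± 0.12 (log2 fold ± SE, limma, adjusted p = 0.00057) whereas csu5-1 gave −0.18 ± 0.12 (adjusted p = 0.21). Calls needed a fold above 1.5 and an adjusted p below 0.01 (Benjamini-Hochberg, over all 19329 tested genes), as the series text has it. No gene is said to have risen or fallen without such a call.

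In csu5-1 seedlings ATHB4 and HAT2 rose against Col, and the other 4 members had higher means without being called. ATHB4 stood about 3-fold higher, with a ratio of mean FPKM of 3.022, and HAT2 rose by 0.92 ± 0.10 on the log2 scale. Thus 2 of 6 members were called higher, where 8.31% of all tested genes were, and 0 of 6 were called lower, where 7.86% were. The members' median log2 fold was 0.51, beside −0.0023 over all tested genes. At adjusted p below 0.05 with no fold limit 6 of 6 were higher, where 24.5% of tested genes were. In bulk RNA, more cells of a type and more RNA per cell cannot be told apart.

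**Figure D1:**
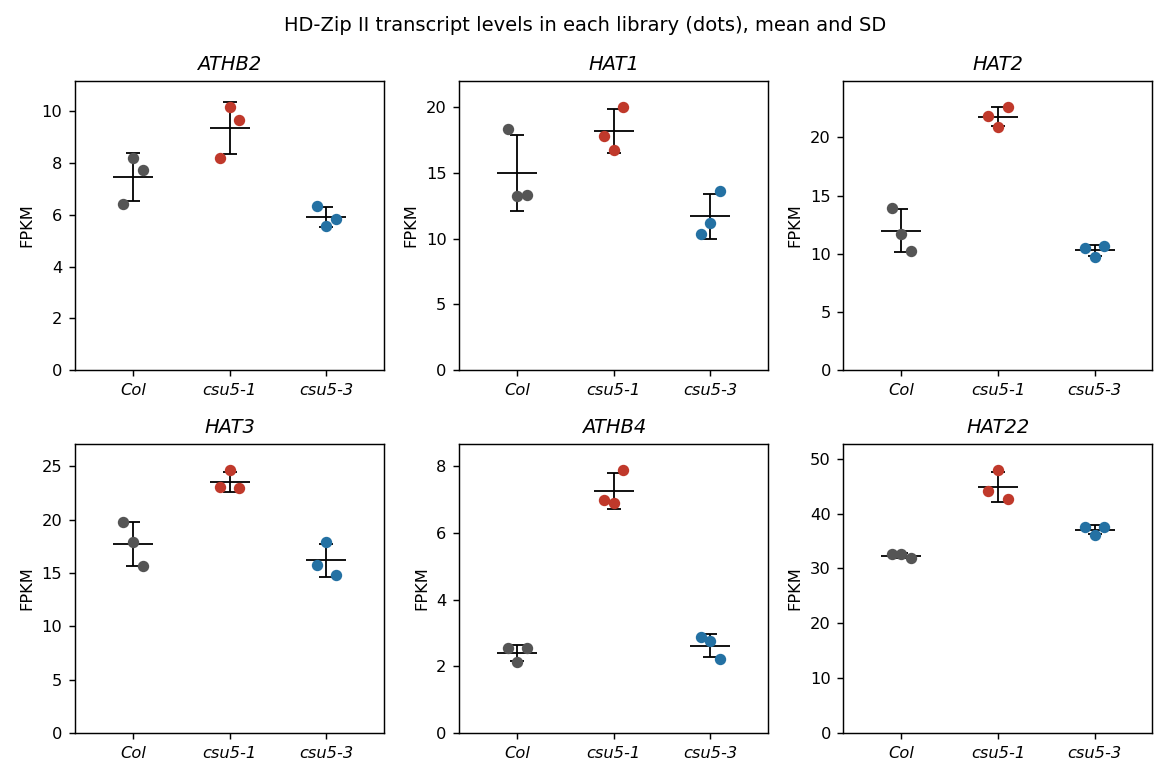
FPKM (vertical axes, from 0) of each of the 6 genes in the 3 libraries of each genotype (dots), with the mean (long line) and SD (bars). The csu5-1 libraries of ATHB4 lie at 6.90 to 7.89 FPKM and all others at 2.12 to 2.88, whereas the ATHB2 and HAT1 values of csu5-1 and Col overlap.

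ATHB4, which acts with HAT3 in leaf polarity and in shade avoidance, was the lowest member. It was at 2.54, 2.12 and 2.55 FPKM in Col, at 7, 6.90 and 7.89 in csu5-1 and at 2.88, 2.77 and 2.22 in csu5-3. The csu5-1 libraries were far above the rest, and Col and csu5-3 overlapped. Means were 2.40 ± 0.245 in Col, 7.26 ± 0.545 in csu5-1 and 2.62 ± 0.354 in csu5-3 (SD, n = 3). ATHB4 rose in csu5-1 by a log2 fold of 1.49 ± 0.13 (SE, limma on log2(FPKM + 0.5), adjusted p = 1.4e-06, 95% interval 1.21 to 1.77). That log2 fold was above those of 98.6% of tested genes. Its level passed 13.1% of tested genes in Col and 36% in csu5-1. In csu5-3 the log2 fold was 0.10 ± 0.13 (adjusted p = 0.7, interval −0.18 to 0.38), and csu5-1 exceeded csu5-3 by 1.39 ± 0.13 (adjusted p = 2.8e-06). The pseudocount makes these folds smaller than the ratio of means for a gene at this level.

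HAT3, the nearest relative of ATHB4, is likewise a leaf polarity regulator. Its values were 19.73, 17.89 and 15.61 FPKM in Col, 23.03, 24.64 and 22.96 in csu5-1 and 15.76, 17.90 and 14.84 in csu5-3. All csu5-1 libraries lay above all others, and Col and csu5-3 overlapped. In means, HAT3 was at 17.7 ± 2.06, 23.5 ± 0.95 and 16.2 ± 1.57 FPKM in Col, csu5-1 and csu5-3 (SD, n = 3). The log2 fold of csu5-1 against Col was 0.48 ± 0.09 (limma, adjusted p = 0.00067), below the fold limit, and that of csu5-3 was −0.13 ± 0.09 (adjusted p = 0.43). Between the mutants HAT3 was called higher in csu5-1 by 0.61 ± 0.09 (adjusted p = 0.00012). This call was lost at 0.55 without csu5-3 replicate 3 and at 0.53 with no scaling of the libraries.

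HAT2, an auxin-induced member, stood at 13.94, 11.69 and 10.27 FPKM in Col, at 21.81, 20.92 and 22.58 in csu5-1 and at 10.50, 9.74 and 10.63 in csu5-3. The csu5-1 libraries again lay apart above the rest, while Col and csu5-3 overlapped. Mean levels were 12.0 ± 1.85, 21.8 ± 0.831 and 10.3 ± 0.481 FPKM (SD, n = 3). HAT2 rose in csu5-1 against Col by a log2 fold of 0.92 ± 0.10 (limma, adjusted p = 6.8e-06, interval 0.71 to 1.13) and against csu5-3 by 1.12 ± 0.10 (adjusted p = 1.4e-06). In csu5-3 against Col it differed by −0.20 ± 0.10 (adjusted p = 0.25, interval −0.41 to 0.01).

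HAT1, the nearest relative of HAT2, is a partner of BES1 in brassinosteroid responses. Its 3 libraries gave 18.34, 13.24 and 13.36 FPKM in Col, 17.84, 16.72 and 19.99 in csu5-1 and 10.34, 11.16 and 13.61 in csu5-3. Col overlapped both mutants: Col replicate 1 lay within the range of csu5-1 and the other two Col libraries lay near csu5-3 replicate 3. Means were 15.0 ± 2.91, 18.2 ± 1.66 and 11.7 ± 1.70 FPKM in the 3 genotypes (SD, n = 3). Neither mutant differed from Col past the thresholds, with log2 folds of 0.36 ± 0.13 in csu5-1 (limma, adjusted p = 0.033) and −0.34 ± 0.13 in csu5-3 (adjusted p = 0.14). The mutants differed from each other, by 0.70 ± 0.13 higher in csu5-1 (adjusted p = 0.0007).

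ATHB2, the class II gene by which shade induction is usually scored, had 6.42, 8.22 and 7.74 FPKM in Col, 8.22, 10.16 and 9.67 in csu5-1 and 6.36, 5.58 and 5.83 in csu5-3. The csu5-1 values met those of Col at 8.22 FPKM, and all 3 csu5-3 values lay below all 3 of Col by a narrow gap. Means were 7.46 ± 0.932, 9.35 ± 1.01 and 5.92 ± 0.398 FPKM (SD, n = 3). The log2 fold was 0.38 ± 0.11 in csu5-1 (limma, adjusted p = 0.014, interval 0.14 to 0.63) and −0.31 ± 0.11 in csu5-3 (adjusted p = 0.14, interval −0.55 to −0.06), so neither was called. Between the mutants ATHB2 was higher in csu5-1 by 0.69 ± 0.11 (adjusted p = 0.00033).

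HAT22, the member tied to abscisic acid, was the highest in every genotype. It was at 32.55, 32.59 and 31.87 FPKM in Col, at 44.11, 47.95 and 42.58 in csu5-1 and at 37.50, 36.12 and 37.59 in csu5-3. No library of a genotype overlapped those of another, and csu5-3 lay between Col and csu5-1. Means were 32.3 ± 0.405, 44.9 ± 2.77 and 37.1 ± 0.824 FPKM (SD, n = 3). With a log2 fold of 0.54 ± 0.06 in csu5-1 (limma, adjusted p = 5.4e-06), or 1.458-fold, HAT22 missed only the fold limit. In csu5-3 it differed from Col by 0.19 ± 0.06 (adjusted p = 0.066) and csu5-1 exceeded csu5-3 by 0.35 ± 0.06 (adjusted p = 0.00022), below the fold limit.

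In csu5-3 against Col limma called 0 of 6 members higher and 0 of 6 lower, where 0.119% and 0.129% of tested genes were called. At an unadjusted p below 0.05, 3 of 6 differed: HAT22 towards higher, and ATHB2 and HAT1 towards lower levels. At that level 9.78% of all tested genes were higher and 12.2% lower, so many genes outside the family did the same. HAT22 was the 1 member with all csu5-3 libraries above Col, as were 14% of tested genes, and ATHB2 the 1 member with all below, as were 13.2%. The median log2 fold of the members was −0.17.

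The alleles differed from each other in most members. Against csu5-3, 5 of 6 members were called higher in csu5-1 and 0 of 6 lower, where 8.12% and 6.59% of tested genes were called, and HAT22 missed the fold limit. The median log2 fold of the members was 0.69, beside −0.0077 over all tested genes. All 3 csu5-1 libraries lay above all 3 csu5-3 libraries for 6 of 6 members, as for 20.7% of tested genes. Against Col this held for HAT2, HAT3, ATHB4 and HAT22, 4 of 6, as for 22% of tested genes. The comparisons share libraries, so they are not separate evidence.

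**Figure D2:**
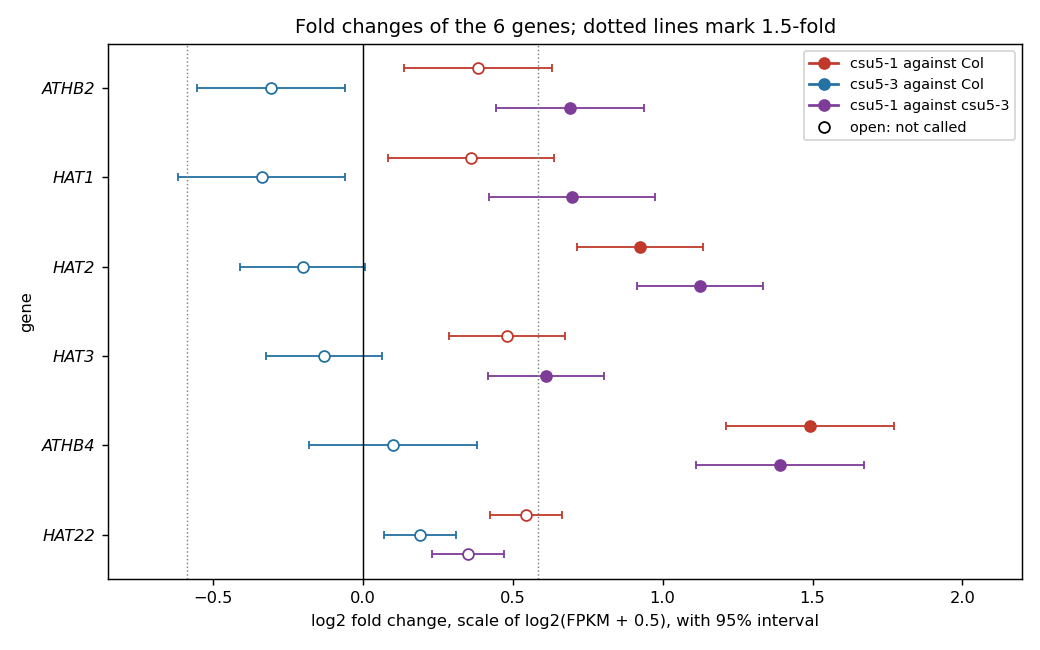
Log2 fold changes (horizontal axis, scale of log2(FPKM + 0.5)) with 95% intervals for the 6 genes in the 3 comparisons; filled circles were called and dotted lines mark a fold of 1.5. The csu5-1 folds against Col run from 0.36 for HAT1 to 1.49 for ATHB4, and those of csu5-3 from −0.34 to 0.19.

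The order of the members' levels, which FPKM allows to be compared between genes, was the same in Col and csu5-3. It was HAT22, HAT3, HAT1, HAT2, ATHB2 and ATHB4, and in Col with overlapping ranges between HAT3 and HAT1 and between HAT1 and HAT2. In csu5-1 HAT2 stood above HAT1, and all neighbours in the order were apart. In csu5-3 the ranges of HAT1 and HAT2 overlapped. The summed level of the 6 genes was 93.52, 85.75 and 81.4 FPKM in Col, 122.01, 127.29 and 125.67 in csu5-1 and 83.34, 83.27 and 84.72 in csu5-3. Of that sum ATHB4 made up 2.47% to 3.13% in Col, 5.42% to 6.28% in csu5-1 and 2.62% to 3.46% in csu5-3.

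The ratio between closely related members was compared within each library, a test that 3 libraries a genotype cannot carry past 0.1. The ratio of HAT2 to HAT1 within a library was 0.760, 0.883 and 0.769 in Col, 1.22, 1.25 and 1.13 in csu5-1 and 1.02, 0.873 and 0.781 in csu5-3. All csu5-1 ratios lay above 1 and above all of the others, and Col and csu5-3 overlapped. The csu5-1 ratio was 1.496-fold that of Col (log2 difference 0.58, exact permutation test over libraries, two-sided p = 0.1, the smallest that 3 against 3 can give). The ratio of ATHB4 to HAT3 was 0.129, 0.119 and 0.163 in Col, 0.304, 0.280 and 0.344 in csu5-1 and 0.183, 0.155 and 0.150 in csu5-3. This ratio was 2.273-fold higher in csu5-1 than in Col (log2 difference 1.18, exact p = 0.1) and 1.905-fold higher than in csu5-3 (0.93, exact p = 0.1). In csu5-3 against Col the log2 difference was 0.14 for HAT2 to HAT1 and 0.25 for ATHB4 to HAT3 (exact p = 0.3 for each). Over the 6 ratio tests no adjusted p was below 0.15. These pairs were chosen with the members' values known.

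**Figure D3:**
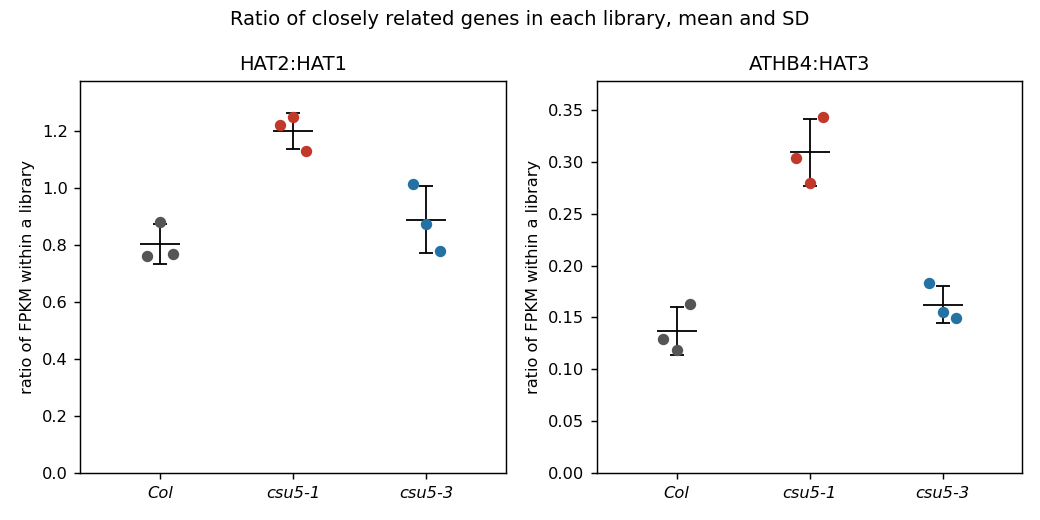
Ratio of FPKM within each library (vertical axes, from 0) for HAT2 to HAT1 and for ATHB4 to HAT3 in the 3 genotypes, with mean and SD of 3 libraries. The csu5-1 ratios are 1.13 to 1.25 and 0.280 to 0.344, above all 6 of the other libraries in both panels.

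Profiles over the 9 libraries were compared by the root mean square difference of scaled log2 values, each gene centred on its Col mean. Among members the closest were ATHB2 with HAT3 (0.22) and HAT3 with HAT22 (0.22), and HAT1 with ATHB4 were farthest apart (0.73). The related pairs were at 0.35 for HAT1 with HAT2 and 0.61 for HAT3 with ATHB4. Among 17389 other genes with a mean of at least 2 FPKM, those nearest to ATHB4 were AT2G43050, a pectin methylesterase gene (0.10), AT2G04570, a lipase-like gene (0.11), and ARR11, a cytokinin response regulator (0.12). Nearest to HAT2 were AT4G02005 (0.076), TRM22 (0.079) and AT1G79790, a hydrolase gene (0.094), of which TRM22 and AT1G79790 overlap other annotated genes and are uncertain. Nearest to ATHB2 were the microtubule-binding protein gene WDL1 (0.11), AT5G19070 (0.11) and the NAC gene LOV1 (0.11), which overlaps another gene. HAT1 was most like the miRNA gene MIR163 (0.095), AT5G19340 (0.097) and AT4G03440, an ankyrin repeat gene (0.11). HAT3 was most like the autophagy gene ATG18B (0.060), AT5G58110 (0.064) and the auxin repressor gene IAA7 (0.068). These distances describe 9 libraries of 3 genotypes.

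The other 4 class II genes had 0 calls in any comparison, where up to 8.31% of all tested genes were called higher and up to 7.86% lower. HAT14 had 3.99 ± 0.243 FPKM in Col and 5.61 ± 0.493 in csu5-1 (log2 fold 0.52 ± 0.11, limma, adjusted p = 0.0018), below the fold limit. ATHB17, from 3.18 ± 0.401 to 4.60 ± 0.501 FPKM, had 0.54 ± 0.16 (adjusted p = 0.011). HAT9, the relative of HAT22, differed by 0.11 ± 0.11 (adjusted p = 0.42), and ATHB18 by 0.33 ± 0.24 (adjusted p = 0.27). At an unadjusted p below 0.05, 2 of the 4 were higher in csu5-1 than in Col, where 27.4% of tested genes were, and 2 were higher than in csu5-3, where 25.5% were. In csu5-3 against Col 0 of the 4 passed that level. Their median log2 fold was 0.42 in csu5-1 against Col and 0.16 in csu5-3.

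Class III HD-Zip genes, targets of small inhibitor proteins and partners of class II in leaf polarity, were read together with other polarity genes. Of 16 tested genes (of 17 listed), 6 rose in csu5-1 against Col and 0 fell, where 8.31% and 7.86% of all tested genes did. The list had a median log2 fold of 0.41. YAB1, which marks the lower leaf side, went from 29.9 ± 1.98 to 62.5 ± 2.25 FPKM (1.13 ± 0.07, limma, adjusted p = 4.2e-08). The class III genes PHB (0.71), PHV (0.66) and ATHB15 (0.60) rose, as did ZPR1 (0.84), which encodes an inhibitor of class III proteins, and AS2 (1.02), a factor of the upper leaf side. ATHB15 was no longer called without Col replicate 1 (0.58), without csu5-1 replicate 2 (0.55), with no scaling (0.52), with quantile normalization (0.58) or with no filter on low values (0.58), and AS2 not without csu5-1 replicate 1 (0.83). AS2 passed the low-value filter only through csu5-1: of 4 libraries with at least 1 FPKM, 1 lay outside csu5-1. The filter thus chose AS2 by its high values in csu5-1. Its means were 0.847 ± 0.273 FPKM in Col and 2.14 ± 0.636 in csu5-1. None of the list was called in csu5-3 against Col, where at an unadjusted p below 0.05 3 of 16 were higher and 4 lower (9.78% and 12.2% of all tested genes). Against csu5-3, 5 were higher in csu5-1: YAB1, PHB, ZPR1, AS2 and YAB3, with AS2 no longer called without csu5-1 replicate 1 (0.74) or csu5-3 replicate 3 (0.90). That compares with 8.12% of all tested genes called higher between the mutants.

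Shade-induced genes other than HD-Zip genes were mostly called higher in csu5-1. Of 16 tested (17 listed), 12 rose against Col and 0 fell, where 8.31% and 7.86% of all tested genes did. The list had a median log2 fold of 0.90. The auxin repressor gene IAA19 went from 4.61 ± 1.12 to 18.7 ± 0.69 FPKM (2.01 ± 0.13, limma, adjusted p = 1.2e-07), and the auxin synthesis gene YUC8 from 2.48 ± 0.296 to 9.09 ± 0.716 (1.76 ± 0.14, adjusted p = 5.9e-07). PRE1 (1.56), IAA29 (1.26), PIL1 (0.98), BEE1 (0.95), PAR2 (0.95), PAR1 (0.94), ST2A (0.87), WAG2 (0.73), XTH15 (0.68) and TAA1 (0.67) were the others. Not called were YUC2 (0.38), YUC9 (0.35), CKX5 (0.23), which overlaps another gene, and HFR1 (−0.14). HFR1 had a lower mean in csu5-1, at 12.8 FPKM against 14.7 in Col. XTH15, which overlaps another gene, was not called without Col replicate 3 (0.48), nor TAA1 without Col replicate 1 (0.56). In csu5-3 against Col 0 were called, and at an unadjusted p below 0.05 4 of 16 were lower, where 12.2% of all tested genes were. Between the mutants 11 were higher in csu5-1 than in csu5-3, where 8.12% of all tested genes were. PIL1 lost the latter call when any of 5 single libraries was left out, with log2 folds of 0.57 to 0.77. It lost that call as well with a pseudocount of 0.1 (0.88), no filter on low values (0.71) or no scaling (0.66).

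Among 14 genes of phytochromes, PIFs and their partners, 4 rose in csu5-1 against Col and 0 fell. Over all tested genes 8.31% rose and 7.86% fell, and the list had a median log2 fold of 0.36. PIF4 went from 16.9 ± 1.35 to 56.0 ± 4.25 FPKM (1.78 ± 0.12, limma, adjusted p = 1.6e-07) and PIF5 from 14.5 ± 1.15 to 59.6 ± 1.95 (2.08 ± 0.08, adjusted p = 1.4e-09). Both encode factors that bind the ATHB2 gene in shade. PHYA (0.99), a far-red photoreceptor gene, and HYH (0.75), a relative of the light regulator HY5, rose as well. HY5 itself, named after its values were seen, had 22.2 ± 3.29 FPKM in Col and 14.1 ± 0.232 in csu5-1 (−0.56 ± 0.09, adjusted p = 0.00026). It missed the fold limit, and was called lower without Col replicate 2 (−0.60) or Col replicate 3 (−0.63) and with no scaling (−0.63). None was called in csu5-3 against Col, where at an unadjusted p below 0.05 4 of 14 were lower, beside 12.2% of all tested genes. HYH was nearest to a call there, with 20.1 ± 3.02 FPKM against 30.8 ± 3.48 in Col (−0.61 ± 0.11, adjusted p = 0.012). It was called lower without csu5-3 replicate 1 (−0.73, adjusted p = 0.0059), with a filter of 5 FPKM (adjusted p = 0.0085) and with the replicate number as a block (adjusted p = 0.00048), and its adjusted p reached 0.066 under other alternatives. Against csu5-3, 5 were higher in csu5-1, the same 4 and PIF1 (0.71), which overlaps another gene. The share of all tested genes called higher there was 8.12%.

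HD-Zip class I, the sister class, had 12 of 17 listed genes tested. In csu5-1 against Col 2 rose and 0 fell, beside 8.31% and 7.86% of all tested genes. The tested class I genes had a median log2 fold of 0.21. ATHB5 went from 49.4 ± 4.27 to 91.6 ± 5.14 FPKM (0.96 ± 0.07, limma, adjusted p = 3.5e-07). ATHB3 went from 7.81 ± 0.659 to 11.7 ± 1.26 (0.63 ± 0.10, adjusted p = 0.00019), a call lost without Col replicate 2 (0.57), without csu5-1 replicate 1 (0.55) or with no scaling (0.55). In csu5-3 against Col 0 were called, and at an unadjusted p below 0.05 2 of 12 were higher and 2 lower (9.78% and 12.2% of all tested genes). Between the mutants ATHB5 was called higher in csu5-1 (0.69), and 0 others, so 1 of 12 beside 8.12% of all tested genes. That count of 1 became 2 without csu5-1 replicate 1 or 2 or csu5-3 replicate 1 or 2, and 3 without csu5-1 replicate 3 or with a pseudocount of 0.1.

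The abscisic acid genes, listed because of HAT22, went in both directions. Of 10 tested, RD20 rose in csu5-1 against Col (1.17), and RD26 (−0.87), RAB18 (−0.77) and ABI5 (−0.72) fell, with a list median of −0.11. Thus 1 was called higher and 3 lower, where 8.31% and 7.86% of all tested genes were. RAB18, which overlaps another gene, was not called without Col replicate 2 or 3 or without csu5-1 replicate 1 or 2 (−0.75 to −0.63). Nor was RAB18 called with no filter on low values (−0.79) or when the variance did not follow the mean (−0.77). In csu5-3 COR15A rose by 1.54 ± 0.20 (limma, adjusted p = 0.003), from 18.5 ± 2.53 to 56.3 ± 16.6 FPKM, and lost the call without Col replicate 1 (1.62, adjusted p = 0.012) or 3 (1.43, adjusted p = 0.012) and without csu5-3 replicate 1 (1.52, adjusted p = 0.011) or 2 (1.34, adjusted p = 0.01). It was not called either when the variance did not follow the mean (1.54, adjusted p = 0.037) or when low genes were kept in the fit (1.54, adjusted p = 0.024). Over all tested genes 0.119% were called higher in csu5-3 against Col. Against csu5-3, RD20 was higher in csu5-1 (0.81), and ABI5 (−0.66), RD26 (−0.83), RD29B (−0.73) and COR15A (−1.28) were lower. These 1 and 4 of 10 stand beside 8.12% and 6.59% of all tested genes. Without csu5-1 replicate 2 the calls of RD20 (0.69) and ABI5 (−0.58) between the mutants were lost. The RD20 call was also lost with no filter on low values (0.79).

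**Figure D4:**
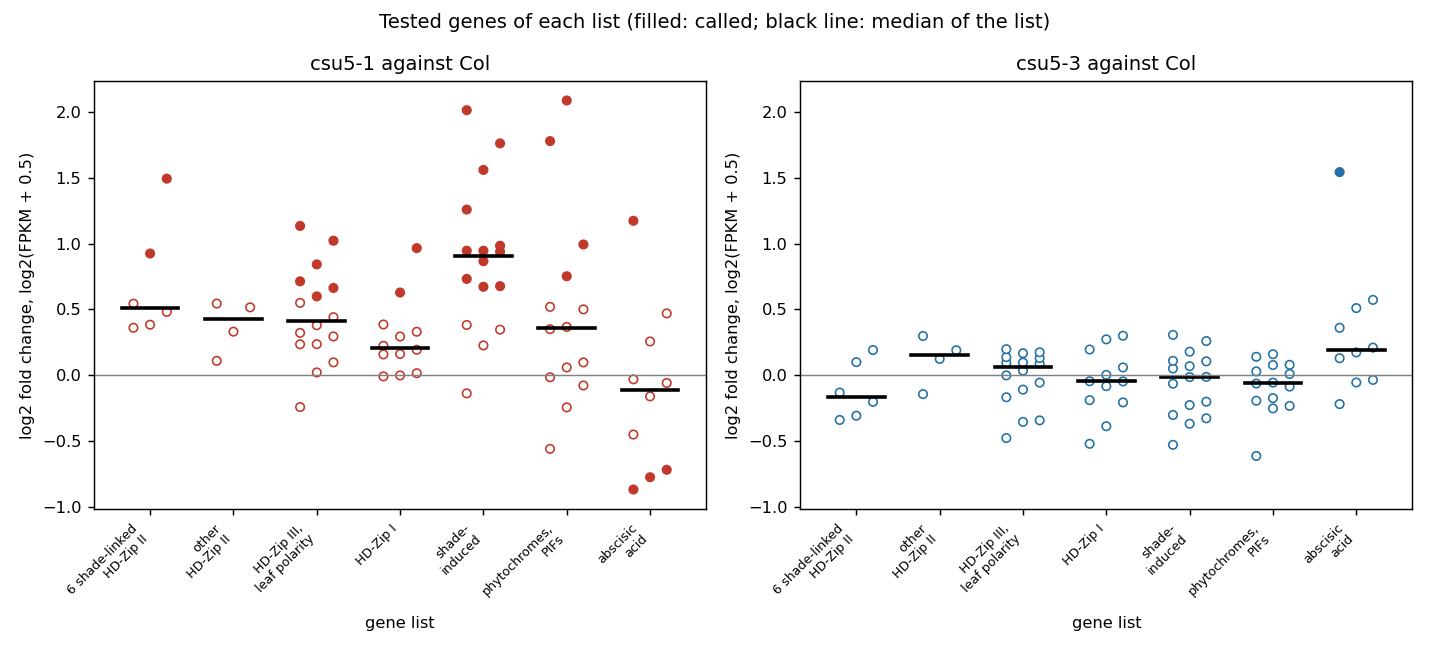
Log2 fold changes (vertical axis, scale of log2(FPKM + 0.5)) of the tested genes of each list in csu5-1 (left) and csu5-3 (right) against Col; filled circles were called and black lines mark list medians. In csu5-1 the medians run from −0.11 for abscisic acid genes to 0.90 for shade-induced genes, with the 6 members at 0.51.

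Markers of seedling tissues also moved with genotype. The summed FPKM of 4 shoot meristem markers was 27 to 29.71 in Col, 37.02 to 43.52 in csu5-1 and 29.15 to 30.27 in csu5-3. Most of that sum was KNAT1, at 25.2 ± 1.67 FPKM in Col and 37.2 ± 3.27 in csu5-1 (SD, n = 3), the 1 of these genes called higher (0.63). Its call was lost without csu5-1 replicate 2 (0.57) or with no scaling (0.55). STM, a meristem identity gene, had a lower mean in csu5-1, with 2.82 ± 0.246 FPKM in Col and 2.39 ± 0.361 in csu5-1 (−0.14 ± 0.14, limma, adjusted p = 0.43). The defining markers CLV3 and WUS were under 1 FPKM in every library. The 6 root markers summed to 87.86 to 90.3 FPKM in Col, 71.38 to 74.06 in csu5-1 and 79.21 to 88.57 in csu5-3. Of these PRP3 fell most in csu5-1, from 20.3 ± 2.63 FPKM in Col to 6.74 ± 0.89. Its log2 fold was −1.45 ± 0.11 (limma, adjusted p = 4.2e-07). EXPA7 (−0.70), COBL9 (−0.46) and PIN2 (−0.28) also had lower means in csu5-1, whereas SHR (0.62) and SCR (0.23) had higher means. In Col, csu5-1 and csu5-3, in that order, 4 green tissue markers summed to 47759 to 50991, 32866 to 33309 and 44575 to 50476. Most of the latter sum was LHCB1.3, which overlaps another gene, with means of 38740 FPKM in Col and 24046 in csu5-1 (−0.61, called lower). RBCS1A was also lower in csu5-1 (−0.40), within the fold limit. GAPB (0.61, called higher) and RCA (0.45, not called) went the other way, with all csu5-1 libraries above Col. RCA also overlaps another gene. Of the root markers 1 rose and 2 fell in csu5-1 against Col, and of the green tissue markers 1 rose and 1 fell. At the same thresholds 8.31% of all tested genes rose and 7.86% fell. For the root markers SHR was no longer called higher without Col replicate 3 (0.58) or with no scaling (0.54), and EXPA7, which overlaps another gene, no longer lower without Col replicate 1 (−0.55) or csu5-1 replicate 2 (−0.55). The PRP3 call was kept under all 19 alternatives. Of the green tissue markers 0 fell without csu5-1 replicate 1 and 0 rose with no scaling. Their part in the members' differences was not tested.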

How the data were processed

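Polyadenylated RNA of whole seedlings was sequenced on the Illumina platform, as the labels' protocols state. The authors used Trimmomatic, HISAT2 2.05, HTSeq and TAIR10, per the submitters' processing notes. The deposited files give 1 value per gene with no stated unit, read here as FPKM from the values: library sums of 691388 to 718744 differ, and low values of short genes are steps of whole reads (72.7% to 82.5% within 0.1 read). The sources used here do not say whether the authors counted by strand, so listed genes that overlap another gene are uncertain.

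The members and gene lists were chosen with earlier results of these data known. Libraries were scaled by a mean of log ratios trimmed by 0.3 at each end (factors 0.9611 to 1.028). Genes with at least 1 FPKM in 3 libraries (19329) were fitted with limma 3.58.1 in R 4.3.3 after log2(FPKM + 0.5), in 1 model over 9 libraries that let the variance follow the mean. The fit was tested on simulated data. The genes named are the members, WRKY32, the other class II genes, called genes of the lists, and the 3 genes nearest in profile to each called member. HY5, STM, CLV3, WUS, RBCS1A, RCA, HYH in csu5-3 and the pairs whose ratios are given were chosen after their values were seen. The same holds for COBL9, PIN2, SCR and the shade-induced genes that were not called. RefSeq names of TAIR10.1 matched 31912 of 32678 identifiers. Python 3.11.15, pandas 2.3.3, Biopython 1.88 and matplotlib 3.10.9 were used for sequences and plots.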

Additional observations from a re-analysis of the deposited data

How the results depend on the processing

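In csu5-1 against Col the number of members called higher was 2 under 18 alternatives, among them other pseudocounts, filters and scalings and leaving out each library in turn, and 6 at adjusted p below 0.05 with no fold limit. Of 342 fold changes of the members over the alternatives, 335 kept their direction and their side of the thresholds, 2 lost and 5 gained a call, and 0 changed direction. With the replicate number as a block (replicate block) 2 members were called higher in csu5-1 against Col and 5 against csu5-3, as without it. The labels do not say that numbers pair the libraries. Deviations of same-numbered libraries correlated at 0.0166 to 0.152, over 0.1 in 2 of 9 pairs, though the same number gave the best match in 8 of 9. Over all genes the block moved the calls in csu5-3 against Col to 34 higher and 43 lower, from 23 and 25. Over these alternatives the log2 fold in csu5-1 against Col ranged from 1.35 to 1.64 for ATHB4 and from 0.83 to 1.03 for HAT2. Between csu5-1 and csu5-3 the count of members was 4 to 6. Over all genes, calls in csu5-3 against Col varied from 1 to 400 higher and from 4 to 599 lower. The depth limits ATHB4 most, at 121 to 173 estimated reads outside csu5-1.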
